A study of Drosophila melanogaster with 11 samples.

Results

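The *homie forward* replacement was compared with the *nhomie forward* replacement by MicroC, library by library, for how contacts were spread over distances and over pairs of chromosomes. The libraries were chosen by the genotype in the sample records, which gave 5 of the 11 libraries of the series, 3 of *homie forward* and 2 of *nhomie forward*. In *homie forward* embryos a copy of the *homie* boundary, in the orientation it has at its own site, stood in the place of *nhomie*, so that these embryos carried *homie* on both sides of *eve*. In *nhomie forward* embryos *nhomie* itself had been put back in its own orientation. Both lines were made by exchange of the same cassette between attP sites, one of them in the intron of *CG12134*, and share the restored sequence around the boundary with the *eve* 7-stripe enhancer. The *nhomie forward* line is therefore a control that went through the same exchange, not an unmodified strain. Whole embryos of 12–16 hr, labelled stage 14, were crosslinked and pooled for each replicate, so that all cell types of the embryo are averaged.

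The gene *even skipped* (*eve*) encodes a homeodomain transcription factor of the segmentation cascade and lies in a chromatin loop whose ends are the boundary elements *nhomie* and *homie*. Fly boundaries pair with partners in a preferred orientation, and the orientation decides whether the loop between them is a stem-loop, whose neighbors are kept apart from it, or a circle-loop, which lies alongside its neighbors. *nhomie* pairs with *homie* head-to-tail, while a boundary pairs with a copy of itself head-to-head, and the *homie forward* line was made to put the second kind of pairing at *eve*. MicroC cuts crosslinked chromatin to nucleosomes and ligates ends that lie close together in the nucleus, and each sequenced ligation is counted as a contact.

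The exchanged segment lies on arm 2R. In RefSeq on the Release 6 assembly, *eIF3j*, a translation initiation factor gene, spans 9968929 to 9970897 on 2R, *CG12134* 9971143 to 9972780, *eve* 9979319 to 9980795 and *TER94*, which encodes an AAA ATPase, 9989159 to 9993559. The 16378 bp between *CG12134* and *TER94* fall in the distance class of 10000 to 17783 bp. The values used here cover the whole genome. Contacts at *eve* itself were not analysed here, so that a difference in a distance class is a difference between libraries over all arms and not at the exchanged boundary. The genome used for *homie forward* had a 2R of 25287480 bp, and that for *nhomie forward* 25287530 bp.

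The *homie forward* libraries were the shallower ones, with 97190642, 126083135 and 92409147 unique contacts in replicates 1, 2 and 3, against 340576138 and 472473246 in the *nhomie forward* libraries. Even so, the 95% Wilson interval of a share was at most 0.0272 percentage points on either side for any pair of arms and 0.0109 points for any distance class. These intervals cover counting error only. Depth thus differed between the genotypes with no overlap, and its part in the results below was not tested.

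Before the genotypes were compared, the libraries were compared with each other. Replicates 2 and 3 of *homie forward* did not differ beyond sampling noise in their contacts between arms (chi-square test of counts over 28 pairs, p = 0.205). They were therefore counted as 1 sample, which left n = 2 for each genotype. The paper describes its replicates as biologically independent, so this merge is a choice made here on the contacts between arms alone. Replicate 1 of *homie forward* stood apart from them. Its profile over distance classes differed from that of replicate 2 by 12.8% (a root mean square relative difference corrected for counting noise), which was more than the 10.7% by which it differed from each *nhomie forward* library. Replicates 2 and 3 differed from each other by 0.102%, which was small but more than sampling noise (chi-square test of counts over 19 classes, p = 0.000857), and the *nhomie forward* libraries by 0.278%. In cis contacts over arms, replicates 2 and 3 differed by 0.114%, also more than sampling noise (chi-square test of counts, p = 6.39e-13). Over pairs of arms these replicates differed by 0.122%, and the deeper *nhomie forward* libraries by 0.301% (chi-square test, p = 1.12e-24 for the latter). This test calls smaller differences in deeper libraries, and a genotype with only 2 libraries was always left as 2 samples. The n = 2 of *nhomie forward* therefore does not show that its libraries were more independent than the merged replicates. All results are therefore given library by library, and those that rest on replicate 1 of *homie forward* are given without it.

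Among cis contacts at 1 kb or more, those in *homie forward* libraries lay more often at 1 to 10 kb, and those in *nhomie forward* libraries more often at 10 kb to 1 Mb. This holds for shares of these contacts only, since as a share of all unique contacts, pairs under 1 kb included, contacts at 1 to 10 kb averaged 15.3% in *homie forward* and 21.4% in *nhomie forward*, a difference of -6.11 points. Of all cis contacts at 1 kb or more, 37.8%, 41.9% and 41.9% lay at 1 to 10 kb in *homie forward* replicates 1, 2 and 3, against 36.6% and 36.5% in the *nhomie forward* libraries. The means were 39.8% ± 2.91 in *homie forward* and 36.6% ± 0.0769 in *nhomie forward* (SD, n = 2 each), a difference of 3.27 percentage points. The libraries of the 2 genotypes did not overlap, and the difference was 5.33 points without *homie forward* replicate 1.

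At 10 to 100 kb, a range that covers many loops between neighboring fly boundaries, the order was the opposite. The share was 27.1%, 27.7% and 27.7% in the *homie forward* libraries, against 29.4% in both *nhomie forward* libraries. The means were 27.4% ± 0.410 and 29.4% ± 0.00972, a difference of -2.04 points. At 100 kb to 1 Mb the *homie forward* libraries held 13.99%, 13.4% and 13.4%, and both *nhomie forward* libraries 15.3%. The difference of the means was -1.63 points, again with no overlap, and all 3 *homie forward* libraries lay on the same side in both ranges.

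At 1 Mb or more no order held for all libraries. *homie forward* replicate 1 had 21.1% of its cis contacts at 1 kb or more there, replicates 2 and 3 had 17.0% each, and both *nhomie forward* libraries had 18.7%, between them. The difference of the means was 0.391 points with replicate 1 and -1.66 points without it, so that 1 library decides its direction.

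**Figure D1:**
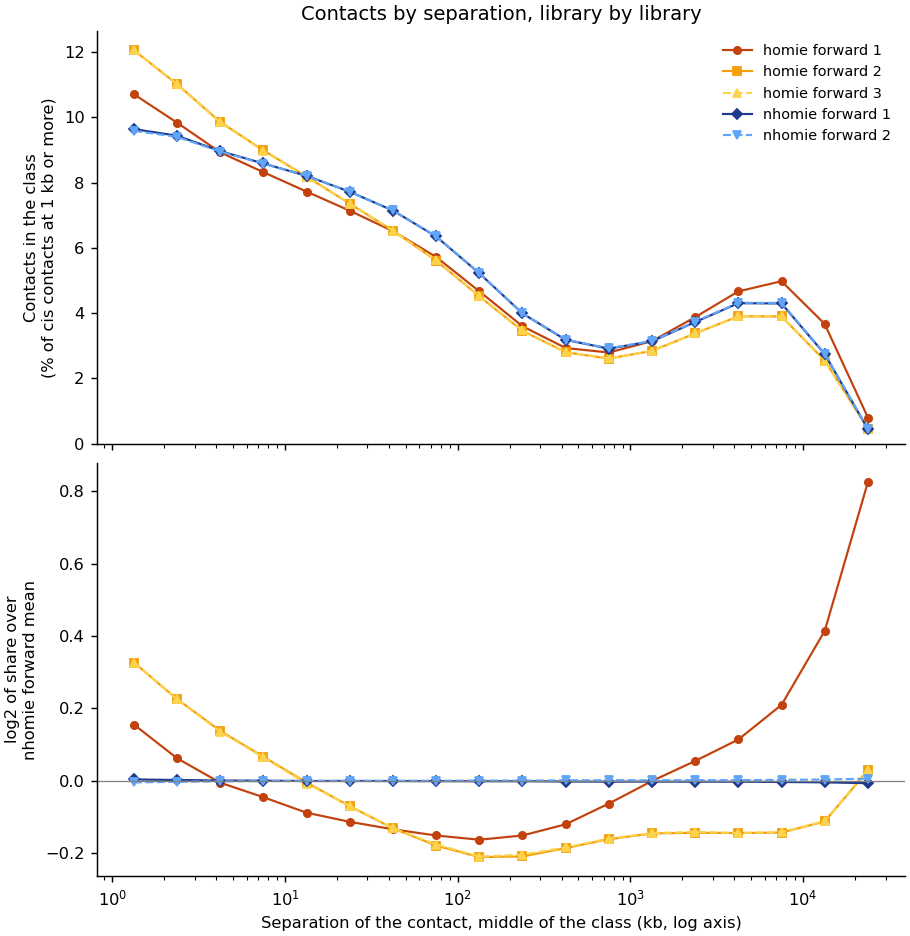
The upper panel plots the share of each of 18 distance classes (% of cis contacts at 1 kb or more) against the middle of the class (kb, log axis), with 1 line per library, and the lower panel the log2 of that share over the *nhomie forward* mean. All 3 *homie forward* libraries lie above the *nhomie forward* lines in the class of 1000 to 1778 bp and below them between 17783 bp and 1 Mb, and replicate 1 departs from replicates 2 and 3 beyond 1 Mb.

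In single distance classes, 11 of 18 (61.1%) had no overlap between the genotypes, with every *homie forward* library higher in 3 (16.7%) and lower in 8 (44.4%). As shares of all unique contacts the same classes were higher in 0 and lower in 18. With so many classes apart, a single class is not set off from the rest, and the shape of the profile is what the classes show. At 1000 to 1778 bp, the shortest class, the shares were 10.7%, 12.1% and 12.1% in *homie forward* and 9.64% and 9.59% in *nhomie forward*, a log2 ratio of the means of 0.24. At 1778 to 3162 bp they were 9.84%, 11.02% and 11.01% in *homie forward* and 9.44% and 9.40% in *nhomie forward*, with a log2 ratio of 0.15 that was 0.23 without *homie forward* replicate 1. Between 3162 and 10000 bp replicate 1 of *homie forward* fell below the *nhomie forward* libraries and replicates 2 and 3 stayed above them.

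From 10 kb to 1 Mb all 8 classes were lower in every *homie forward* library. In the class of 10000 to 17783 bp, which holds the separation of *CG12134* and *TER94*, the difference was small, with 7.72%, 8.18% and 8.17% in *homie forward* against 8.21% in both *nhomie forward* libraries (log2 ratio -0.05, and -0.01 without *homie forward* replicate 1). It was largest in size at 100000 to 177828 bp, with 4.67%, 4.52% and 4.52% in *homie forward* against 5.22% and 5.23% in *nhomie forward*, a log2 ratio of -0.19. Here each *homie forward* library was 10.6% to 13.6% below the *nhomie forward* mean. The *nhomie forward* libraries lay above the 6 libraries of the *λ DNA* and *nhomie reverse* replacements as well in every class between 10 and 316 kb, so that in these classes they were the highest of all 11. At 1000 to 1778 bp it was *homie forward* replicates 2 and 3 that were the highest of all 11, above the 10.9% of the highest other library.

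The classes beyond 1 Mb carried the difference between *homie forward* replicates. At 10.0 to 17.8 Mb the share was 3.67% in replicate 1 and 2.55% in replicates 2 and 3, against 2.74% and 2.76% in *nhomie forward*. The class of 17782794 to 31622777 bp did not overlap, with 0.800%, 0.461% and 0.462% in *homie forward* and 0.450% and 0.454% in *nhomie forward*, but its log2 ratio of 0.48 was 0.03 without replicate 1. With a log2 ratio of at least 0.1 in size asked for as well, 9 classes (50%) were counted, 3 higher (16.7%) and 6 lower (33.3%) in *homie forward*. When replicate 1 was left out, 5 classes by the first count were higher and 13 lower in *homie forward*, so that every class was apart.

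For cis contacts at 1 kb or more, the median separation was 25.5, 17.7 and 17.7 kb in the *homie forward* libraries and 26.1 and 26.4 kb in the *nhomie forward* libraries. All 3 *homie forward* medians were the lower, although that of replicate 1 by less than 1 kb. The number of contacts per bp fell with separation as a power of the distance, and the exponent, fitted on log10 scales, measures how steeply (called the slope here). From 1 kb to 10 kb the slope was -1.15, -1.17 and -1.17 in *homie forward*, steeper than the -1.07 of both *nhomie forward* libraries. From 10 to 100 kb it was -1.17, -1.22 and -1.22 in *homie forward* and -1.15 in both *nhomie forward* libraries. From 100 kb to 1 Mb the order turned, with -1.30, -1.32 and -1.32 in *homie forward* and -1.34 in both *nhomie forward* libraries. Over the whole range of 10 kb to 1 Mb the libraries overlapped, with -1.28, -1.31 and -1.31 in *homie forward* and -1.28 in both *nhomie forward* libraries. Contacts in *homie forward* thus fell off faster up to 100 kb and more slowly from there to 1 Mb, and a single slope hid this.

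A cis contact at long range can be set against contacts between chromosomes, which have no distance. Contacts whose ends lie on different arms are called trans contacts here. In *homie forward* their numbers per cis contact at 1 kb or more were 0.296, 0.162 and 0.163, and in *nhomie forward* 0.146 and 0.148. The means were 0.229 ± 0.0946 and 0.147 ± 0.00138 (SD, n = 2 each), a difference of 0.0825, most of which came from replicate 1 of *homie forward*. Without that library the difference was 0.0156, still with no overlap. In the *λ DNA* and *nhomie reverse* libraries the ratio was 0.215 to 0.561, above *homie forward* replicates 2 and 3, so that a high ratio was not particular to *homie forward*. The direction turned with the denominator, since per cis contact of any separation the means were 0.0907 in *homie forward* and 0.0942 in *nhomie forward*, a difference of -0.00345 (exact permutation test, p = 1). On that denominator *homie forward* replicate 1 lay above both *nhomie forward* libraries, and replicates 2 and 3 lay below both, so that the means hide a split. Among the libraries of the 2 genotypes, inward-facing pairs under 1 kb, the orientation of an unligated fragment, were most frequent in *homie forward* replicate 1 and least frequent in *nhomie forward*. They made up 50.9%, 33.8% and 34.5% of the unique contacts in *homie forward* and 21.0% and 19.8% in *nhomie forward*. In the *λ DNA* and *nhomie reverse* libraries they made up 21.4% to 55.4%. The part of these pairs and of the trans contacts in the distance profile was not tested.

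The density of cis contacts per possible pair of positions was therefore divided, class by class, by the density of contacts between large arms of different chromosomes. At 1000 to 1778 bp it was 25981, 55097 and 54958 times the trans density in *homie forward* and 49894 and 48943 times in *nhomie forward*, with overlap. At 10000 to 17783 bp the ratio was 1874, 3740 and 3723 in *homie forward* against 4249 and 4193 in *nhomie forward*. At 100000 to 177828 bp it was 114, 208 and 207 in *homie forward* against 272 and 269 in *nhomie forward*. On this scale every *homie forward* library was lower in 16 of 18 classes, all those from 3162 bp on. In the last class, 17782794 to 31622777 bp, cis contacts were nearly as sparse as trans contacts in all 5 libraries, at 0.959, 1.04 and 1.04 times the trans density in *homie forward* and 1.15 and 1.14 in *nhomie forward*.

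**Figure D2:**
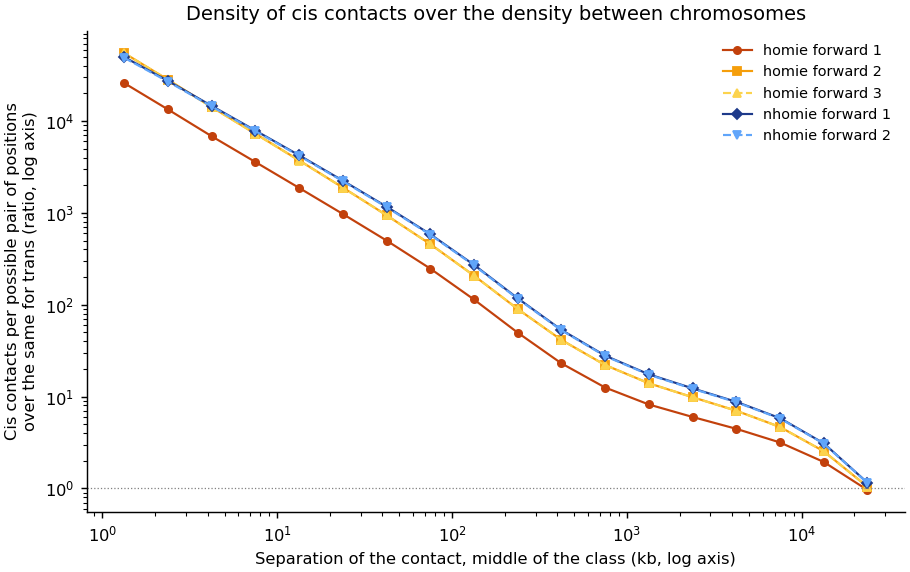
Cis contacts per possible pair of positions, divided by the same density between large arms of different chromosomes (ratio, log axis), are plotted against separation (kb, log axis) for each library, and the dotted line marks a ratio of 1. The *homie forward* lines lie below both *nhomie forward* lines in every class from 3162 bp on, and replicate 1 of *homie forward* lies the lowest throughout.

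Taking the trans density off every class brought the *homie forward* samples closer together at 1 Mb or more, where their SD was 1.19 points instead of 2.89, and farther apart at 100 kb to 1 Mb, where it was 0.623 points instead of 0.422. At 1 Mb or more the shares were then 15.8%, 14.2% and 14.2% in *homie forward* and 16.2% in both *nhomie forward* libraries, without overlap. At 1 to 10 kb they were 40.6%, 43.5% and 43.5% in *homie forward* and 37.8% in both *nhomie forward* libraries. At 10 to 100 kb the *homie forward* shares were 29.1%, 28.7% and 28.7%, against 30.4% in both *nhomie forward* libraries. After this step 17 of 18 classes (94.4%) had no overlap, with *homie forward* higher in 4 (22.2%) and lower in 13 (72.2%). The lower classes include that of 17782794 to 31622777 bp, where little was left. Its shares were -0.0363%, 0.0188% and 0.0185% in *homie forward* and 0.0609% and 0.0594% in *nhomie forward*, so that more was taken off than counted in replicate 1. This step was chosen after the profiles had been seen.

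The 4 orientations in which the reads of a contact can face should be equally frequent once contacts are independent of how the fragments were cut. At 1000 to 1778 bp this was not yet so, and the excess was larger in *homie forward*. The spread between the most and the least frequent orientation, as a percent of the mean of all 4, was 25.1%, 26.6% and 26.6% in *homie forward* and 23.2% in both *nhomie forward* libraries, a difference of 2.67 points. Inward-facing contacts made up 28.5%, 28.6% and 28.7% of this class in *homie forward* and 28.1% in both *nhomie forward* libraries. Of the 16 orientation shares between 1 and 10 kb, 13 (81.2%) had no overlap, 4 higher (25%) and 9 lower (56.2%) in *homie forward*. The imbalance shrank with separation and at 10000 to 17783 bp was 1.42%, 1.84% and 1.78% in *homie forward* and 1.84% and 1.83% in *nhomie forward*, with overlap, so that beyond 10 kb the orientation no longer separated the genotypes.

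Among cis contacts, the large arms took nearly the same shares in both genotypes, while the small chromosome 4, the Y chromosome and the mitochondrial genome took more in *homie forward*. Of the 8 arms and chromosomes, 6 (75%) had no overlap, 4 of them higher (50%) and 2 lower (25%) in *homie forward*. Arm 2R, which carries *eve*, held 19.6%, 19.5% and 19.5% of cis contacts in *homie forward* and 19.7% in both *nhomie forward* libraries. Its difference of -0.142 points had no overlap but was a log2 ratio of -0.01. Arm 3R was lower by more, with 25.8% in all 3 *homie forward* libraries and 26.4% in both *nhomie forward* libraries. The *λ DNA* and *nhomie reverse* libraries held 25.9% to 26.2% on 3R, also below *nhomie forward*. 2L and 3L overlapped. With a log2 ratio of at least 0.1 in size asked for as well, 3 of the 8 (37.5%) were counted, all higher in *homie forward* (37.5%) and 0 lower (0%).

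The X chromosome held 14.9%, 14.4% and 14.4% of cis contacts in *homie forward* and 14.2% in both *nhomie forward* libraries. The difference of the means was 0.473 points, and 0.230 points without *homie forward* replicate 1. Chromosome 4, a small and largely heterochromatic autosome, held 0.600%, 0.753% and 0.749% in *homie forward* against 0.556% and 0.574% in *nhomie forward* (log2 ratio 0.26, and 0.41 without *homie forward* replicate 1). The Y chromosome, which is heterochromatic and poor in genes, held 0.0567%, 0.0519% and 0.0518% in *homie forward* against 0.0424% and 0.0425% in *nhomie forward* (log2 ratio 0.36). For the mitochondrial genome the shares were 0.0293%, 0.0158% and 0.0169% in *homie forward* and 0.0126% and 0.0125% in *nhomie forward*, with a log2 ratio of 0.86 that was 0.38 without replicate 1. For chromosome 4 the difference came mostly from replicates 2 and 3, and for the mitochondrial genome mostly from replicate 1. In the *λ DNA* and *nhomie reverse* libraries chromosome 4 held 0.490% to 0.689% and the Y chromosome 0.0360% to 0.0624%, ranges that span the *nhomie forward* values. The mitochondrial genome held 0.0127% to 0.0273% there, so that the *nhomie forward* libraries were the lowest of the series.

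**Figure D3:**
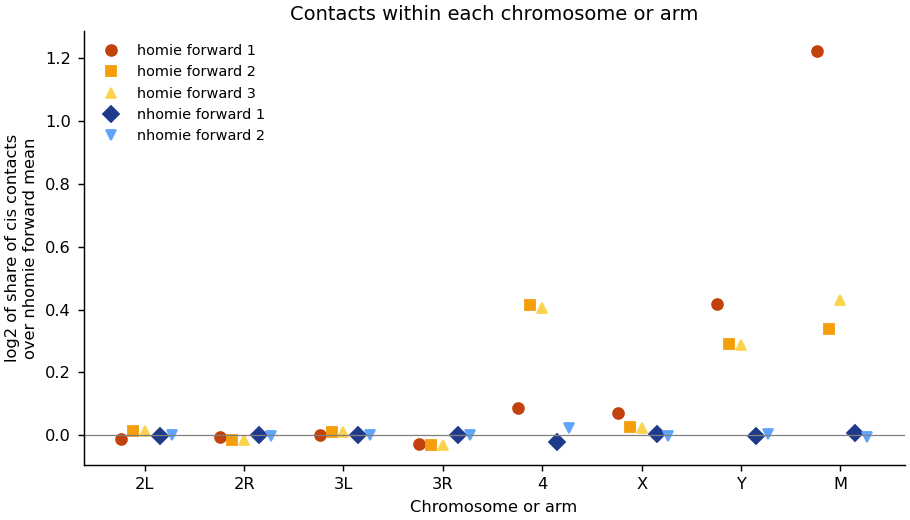
The log2 of each arm's or chromosome's share of cis contacts over the *nhomie forward* mean is plotted with 1 point per library (M is the mitochondrial genome). Points of the 5 large arms lie near 0 in all libraries, while those of 4, Y and M lie above the *nhomie forward* points in all 3 *homie forward* libraries.

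Set against their own trans contacts, these 3 small chromosomes also stayed apart. Chromosome 4 had 2.48, 3.62 and 3.63 cis contacts per trans contact in *homie forward*, against 2.25 and 2.22 in *nhomie forward*. The Y chromosome had 0.717, 0.853 and 0.854 in *homie forward* against 0.621 and 0.602 in *nhomie forward*, and the mitochondrial genome 0.388, 0.285 and 0.312 in *homie forward* against 0.216 and 0.203 in *nhomie forward*. The 5 large arms all overlapped. On 2R, for example, the ratio was 4.88, 6.32 and 6.38 in *homie forward* and 5.35 and 5.18 in *nhomie forward*.

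Between chromosomes, *homie forward* libraries held a smaller share of contacts between the arms of one chromosome and between the X, Y and 4, and a larger share between large arms of different chromosomes. Of the 28 pairs, 23 (82.1%) had no overlap, with *homie forward* higher in 17 (60.7%) and lower in 6 (21.4%). Contacts between 2L and 2R, the arms of chromosome 2, were 10.2%, 11.3% and 11.3% of trans contacts in *homie forward* and 12.0% and 11.9% in *nhomie forward*. Those between 3L and 3R were 14.3%, 15.2% and 15.2% in *homie forward* and 15.8% in both *nhomie forward* libraries. Without *homie forward* replicate 1 the log2 ratios were -0.08 instead of -0.15 for 2L with 2R and -0.06 instead of -0.10 for 3L with 3R. In contrast, 7 of the 8 pairs of large arms of different chromosomes were higher in every *homie forward* library, with log2 ratios of up to 0.07, and 2R with 3R overlapped. A log2 ratio of at least 0.1 in size was reached by 15 of the 28 pairs without overlap (53.6%), 10 higher (35.7%) and 5 lower (17.9%) in *homie forward*.

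The pair that was lowest in *homie forward* relative to *nhomie forward* was chromosome 4 with Y, both rich in heterochromatin. It held 0.0153%, 0.0210% and 0.0219% of trans contacts in *homie forward*, from 1395, 1929 and 1461 contacts. In *nhomie forward* it held 0.0283% and 0.0286%, from 8167 and 11811 contacts, which gives a log2 ratio of -0.63. Without *homie forward* replicate 1 the log2 ratio was -0.41. Next came 4 with X at 0.392%, 0.448% and 0.442% in *homie forward* against 0.488% and 0.490% in *nhomie forward* (log2 ratio -0.22), and 2R with 4 at 0.444%, 0.493% and 0.499% in *homie forward* against 0.527% and 0.533% in *nhomie forward* (log2 ratio -0.17). Without replicate 1 these log2 ratios were -0.14 for 4 with X and -0.10 for 2R with 4. X with Y was lower as well, with 0.144%, 0.158% and 0.160% in *homie forward* and 0.163% and 0.161% in *nhomie forward*, and its log2 ratio of -0.09 was -0.02 without replicate 1. Each of these pairs has an end on 4, X or Y.

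Pairs that were higher in *homie forward* included Y with the autosomal arms and the mitochondrial genome with most arms. 2L with Y held 0.129%, 0.117% and 0.115% of trans contacts in *homie forward* and 0.104% in both *nhomie forward* libraries (log2 ratio 0.24). 3L with the mitochondrial genome held 0.151% in all 3 *homie forward* libraries and 0.129% and 0.133% in *nhomie forward* (log2 ratio 0.20). The pair of Y and the mitochondrial genome had the highest log2 ratio without overlap, 0.31, or 0.51 without replicate 1 of *homie forward*, but rested on 167, 237 and 160 contacts in *homie forward* and 491 and 736 in *nhomie forward*. Of the 7 pairs with a mitochondrial end, 6 were higher in every *homie forward* library, where 60.7% of all pairs were. Per 1000 trans contacts, those with a mitochondrial end numbered 7.31, 7.07 and 6.94 in *homie forward* and 6.29 and 6.42 in *nhomie forward*. In the *λ DNA* and *nhomie reverse* libraries they ranged from 5.45 to 10.4. Set against the totals of both chromosomes, by the weights described next, 1 of the 7 mitochondrial pairs was higher, 2 were lower and 4 overlapped. Of all pairs on that scale, 39.3% were higher and 39.3% lower.

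**Figure D4:**
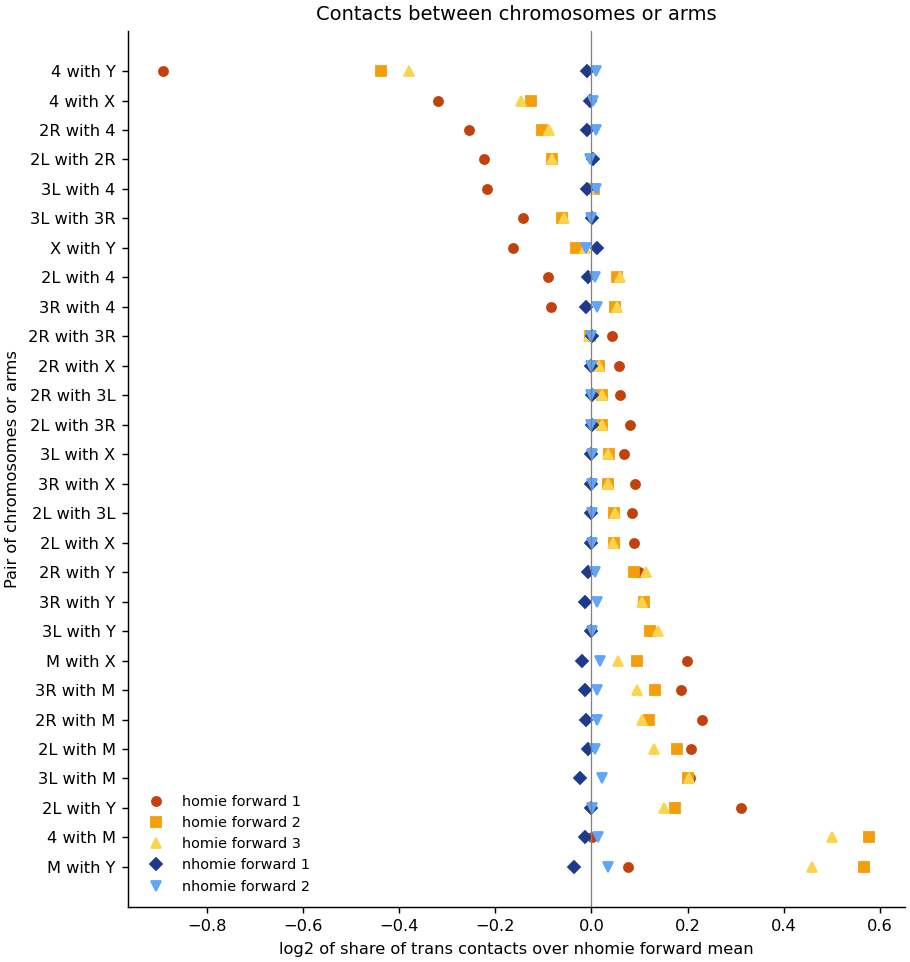
The log2 of each pair's share of trans contacts over the *nhomie forward* mean is plotted for the 28 pairs, ordered by the mean of *homie forward*, with 1 point per library. The pairs of 4 with Y, 4 with X, 2R with 4, 2L with 2R, 3L with 3R and X with Y lie below both *nhomie forward* points in all 3 *homie forward* libraries, and replicate 1 lies farthest out in each of these.

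Because the share of one pair depends on all others, each pair was also divided by the product of weights fitted to its arms, so that a value of 1 means as many contacts as the total of both arms would give. On this scale 2L with 2R had 1.22, 1.39 and 1.39 in *homie forward* and 1.49 and 1.48 in *nhomie forward*, with means of 1.30 ± 0.118 and 1.49 ± 0.00317 (SD, n = 2 each). 3L with 3R had 1.16, 1.26 and 1.27 in *homie forward* and 1.34 in both *nhomie forward* libraries, with means of 1.21 ± 0.0770 and 1.34 ± 0.00161. Both same-chromosome pairs thus exceeded their expectation in all 5 libraries, and by less in *homie forward*. Without *homie forward* replicate 1 the differences were smaller, at -0.0999 instead of -0.183 for 2L with 2R and at -0.0774 instead of -0.132 for 3L with 3R.

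When the weights were fitted over all chromosomes, 22 of 28 pairs (78.6%) had no overlap, 11 higher (39.3%) and 11 lower (39.3%) in *homie forward*. The pairs of large arms of different chromosomes then lay within a log2 ratio of 0.01 of *nhomie forward* in either direction. Contacts of 4 with Y were 2.02, 2.36 and 2.44 times expected in *homie forward* and 3.25 times in both *nhomie forward* libraries. Those of 4 with X were 1.07, 1.09 and 1.07 times expected in *homie forward* and 1.18 and 1.17 in *nhomie forward*, and those of X with Y 1.22, 1.32 and 1.33 in *homie forward* and 1.44 and 1.41 in *nhomie forward*. The direction was the same without replicate 1 of *homie forward* in each of these 3 pairs, with a log2 ratio of -0.10 instead of -0.16 for X with Y. Conversely, 2L with 4 was higher on this scale in *homie forward*, at 0.965, 0.948 and 0.951 against 0.906 and 0.904 in *nhomie forward*, as did 3R with 4, at 0.967, 0.948 and 0.9505 in *homie forward* against 0.897 and 0.901 in *nhomie forward*.

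For these pairs the *nhomie forward* libraries were the ones that stood apart from the rest of the series. The 6 *λ DNA* and *nhomie reverse* libraries had 1.81 to 2.15 times the expected contacts of 4 with Y, 1.02 to 1.05 of 4 with X, 1.13 to 1.34 of 2L with 2R and 1.10 to 1.23 of 3L with 3R. *homie forward* replicates 2 and 3 lay between these ranges and *nhomie forward* in each of the 4 pairs, and replicate 1 lay within the range of the 6 libraries in all but 4 with X.

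**Figure D5:**
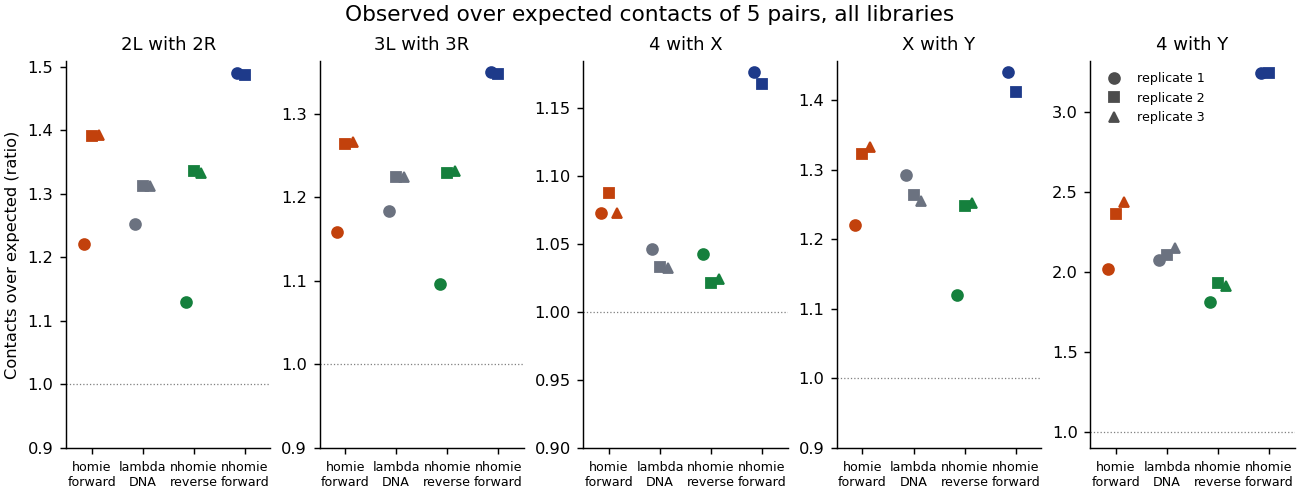
Contacts over expected (ratio, from weights fitted over all chromosomes, vertical axes that do not start at 0) are plotted for 5 pairs in all 11 libraries by genotype, with 1 marker shape per replicate number and a dotted line at 1. In each panel both *nhomie forward* points lie above the 3 *homie forward* points and above all points of the other replacements.

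Whole profiles were also compared with those of the 8 libraries of other genotypes. Over distance classes from 1 kb, the library of another genotype nearest to *homie forward* replicate 1 was *nhomie reverse* replicate 3, at 4.68%, and the nearest to replicates 2 and 3 was *λ DNA* replicate 2, at 7.39% and 7.31%. The *nhomie forward* libraries were farther than these nearest libraries, at 10.7% from *homie forward* replicate 1 and at 12.2% or more from replicates 2 and 3. They were not the farthest, since the nearer *nhomie forward* library ranked 6, 3 and 3 among the 8 for replicates 1, 2 and 3. From 10 kb on, however, *nhomie forward* replicate 1 was the nearest library of another genotype to replicates 2 and 3, at 4.47% and 4.36%, while replicate 1 was 12.5% or more from either *nhomie forward* library. Over pairs of arms, *nhomie forward* replicate 2 was again the nearest to *homie forward* replicates 2 and 3, at 3.36% and 3.27%, and *λ DNA* replicate 1 was the nearest to replicate 1, at 2.93%. Over the arms of cis contacts it was otherwise, with *nhomie reverse* replicate 1 the nearest to *homie forward* replicate 1, at 0.439%, and *λ DNA* replicates 2 and 3 the nearest to replicates 2 and 3, at 1.23% and 1.18%. There the nearer *nhomie forward* library ranked only 5, 6 and 6 among the 8, at 2.66%, 2.76% and 2.71%. With the distance classes under 10 kb left out, replicates 2 and 3 were thus nearer to *nhomie forward* than with them, and replicate 1 was not.

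Of the 11 measures compared between the genotypes, 9 had no overlap between libraries, and the share at 1 Mb or more and the slope from 10 kb to 1 Mb overlapped. With n = 2 each, an exact permutation test of the difference in means (two-sided) cannot give less than p = 0.333, which it gave for each of these 9 measures (Benjamini-Hochberg adjusted p = 0.407 over the 11 measures). With every library as a sample of its own, the smallest exact p is 0.1, which was reached for the shares at 10 to 100 kb and at 100 kb to 1 Mb, the orientation imbalance and both same-chromosome pairs over expected (adjusted p = 0.22). No difference can therefore pass a threshold of 0.05 in this design. A p at its smallest possible value shows only that the values of the 2 genotypes lay apart. It measures neither the size of the difference nor the spread between libraries. Genotype, depth and the share of inward-facing pairs under 1 kb all separated the same libraries and cannot be told apart.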

How the data were processed

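Whole embryos of 12–16 hr were assayed by MicroC. The authors aligned the paired reads with BWA-MEM to a custom genome per genotype, edited from Release 6 (dm6), and with Pairtools removed half-mapped, low-quality and duplicate pairs; tool versions are not given in the sources used here. The deposited summary of each library holds 222 values of mixed kinds, of which only the raw counts by distance class and orientation and by pair of chromosomes, made per replicate, and chromosome lengths were used. Shares, slopes, densities and arm weights were computed from the deposited counts in Python 3.11.15 (scipy 1.17.1, numpy 2.4.6; figures by matplotlib 3.10.9).

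Distance classes with at least 1000 contacts in every library were kept, which gave 18. Classes, arms and pairs within a library add up to its total, so that no count model was fitted across them, and they were described by whether the libraries of the genotypes overlapped. The 3 pairs with the lowest and the highest log2 ratio without overlap were named by rule, as were all cis arms and the broad distance ranges; X with Y and the other pairs with an end on 4 were named after their values were seen. Weights of the 5 large arms came from a least-squares fit on the logs of 8 pairs of different chromosomes, and weights over all chromosomes from 26 pairs. Differences between 11 measures were tested by exact permutation. Replicates were compared by chi-square tests. The computations were tested on simulated data. The libraries, measures and pairs were chosen with earlier results of these data known.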

Additional observations from a re-analysis of the deposited data

Results flagged for a closer look

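Pairs under 1 kb lie outside the compared distance classes. Inward-facing pairs among them made up 42.5% of unique contacts on average in *homie forward* (50.9%, 33.8% and 34.5% in replicates 1, 2 and 3) and lay above the *nhomie forward* libraries (21.0% and 19.8%) in every library, a difference of the means of 22.1 percentage points. This signal was picked out because it appears in counts that the comparisons do not use and is above its level in the control libraries. It was not particular to *homie forward*, since these pairs made up 21.4% to 55.4% in the *λ DNA* and *nhomie reverse* libraries, all above both *nhomie forward* libraries.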

How the results depend on the processing

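Of 114 alternative values of the 11 measures, 107 kept their direction, and 8 measures kept it under every alternative run. Of 48 alternative counts of classes, 41 stayed within 1.5 times. As a share of all unique contacts, contacts at 1 to 10 kb differed by -6.11 points and those at 1 Mb or more by -3.82, and 0 distance classes were higher and 18 lower in *homie forward*. The share at 1 Mb or more also turned with every library as a sample of its own (-0.292), with pooled counts (-0.685) and with the trans density taken off (-1.21; 13 classes lower), a step added after seeing the data, as were the likeness from 10 kb and the log2 ratio of this share. Per cis contact of any separation, trans contacts differed by -0.00345. A log2 ratio of at least 0.1 left 0 arms lower in cis and 10 pairs higher in trans. The causes of these changes were not tested.

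Leaving out 1 library at a time gave 3.22 to 5.33 points at 1 to 10 kb, -2.04 to -1.75 at 10 to 100 kb, -1.93 to -1.61 at 100 kb to 1 Mb and -1.66 to 0.425 at 1 Mb or more, slope differences of -0.0274 to -0.0128, 2.65 to 3.42 points for the imbalance and 0.0156 to 0.0834 for trans per cis contact. It gave -0.200 to -0.121 points for 2R, 0.230 to 0.497 for X, -0.185 to -0.0999 for 2L with 2R and -0.133 to -0.0774 for 3L with 3R. The counts were 3 to 5 and 8 to 13 distance classes, 4 to 6 and 2 arms, and 17 to 20 and 6 to 7 pairs, higher and lower. In all 11 measures the value without *homie forward* replicate 1 was the one farthest from that with all libraries. Replicates 2 and 3 were counted as 1 sample, so leaving out either kept that sample nearly unchanged. Among the *homie forward* libraries only replicate 1 took a whole sample away, and its larger effect follows in part from this counting.

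The replicate numbers were not shown to pair the libraries, since only 2 numbers are shared and the sign of the correlation depended on the contacts used: over 72 classes at 1 kb or more same-numbered libraries gave r = -0.888 for both numbers, and over 88 classes from 100 bp 0.272 and 0.274. With 2 *nhomie forward* libraries, differently numbered pairs mirror these signs by construction. Because *homie forward* replicates 2 and 3 were nearly alike, the values of the 2 shared numbers also had to agree closely and count as 1 observation. With the replicate block the measures differed by 3.28, -2.04, -1.63 and 0.387 points in the 4 distance ranges, -0.0133 for the slope, 2.65 for the imbalance, 0.0824 for trans per cis contact, -0.146 for 2R, 0.478 for X, -0.183 for 2L with 2R and -0.132 for 3L with 3R, and no direction changed. Counting error was at most 0.00112 points on either side of the share of 4 with Y.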
